A study of Homo sapiens with 8 samples.

Results

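NFE2L2 encodes NRF2, the transcription factor that drives the antioxidant response, and its gene was examined here with 8 partners or targets: KEAP1, HMOX1, NQO1, GCLC, GCLM, TXNRD1, SRXN1 and SOD2. The 9 genes were chosen by name, with earlier results of these data known, out of 19483 genes that could be named on the array. Each had 1 probe that could be named through a RefSeq accession. Of the 9, 8 were bright enough to be tested, among 14805 genes and 28759 probes tested in all.

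Gene expression had been profiled in U87 cells, an established human glioblastoma line, to ask which transcripts depend on RND3. RND3 is a small GTP-binding protein. Cells received siRNA against RND3 (siRND3) or non-silencing siRNA (siControl), and RNA was taken after 24 h on 3 arrays of each kind and after 48 h on 1 array of each kind. The siRNA was delivered by lipid transfection and the labels name no other transgene or drug. The study used a pair of RND3 siRNAs without saying which array received which, and the labels do not say whether replicates were separate transfections, so p-values measure only the spread between these arrays.

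In resting cells NRF2 is held by KEAP1, an adaptor that hands it to a CUL3 ubiquitin ligase for destruction. Oxidants and electrophiles modify cysteines of KEAP1, NRF2 then builds up in the nucleus, pairs with a small MAF protein and binds antioxidant response elements near genes for glutathione and thioredoxin metabolism, quinone reduction and heme breakdown. NRF2 activity is known to protect glioma cells from oxidative stress. SOD2 is a mitochondrial enzyme better known as a target of NF-kB, and it is listed with the others because it clears superoxide.

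The core of the antioxidant response element, TGACNNNGC, was searched on both strands in windows from 250 bases before to 50 bases after each RefSeq start site (build GRCh38.p14). Of the 9 genes, 8 had at least 1 window, with 14 windows in all, and HMOX1 had none. The core was present in 13.3% of 35116 promoter windows of the same length. It was found in windows of 3 of the genes, TXNRD1, GCLM and KEAP1, with 6 matches in 4 windows, and no match lay in the windows of NFE2L2, NQO1, GCLC, SRXN1 or SOD2. The AP-1 site, TGACTCA or TGAGTCA, which shares its opening letters with the core, was in 4.95% of all windows and in none of the 14. The windows with a match are shown with that of NQO1, the gene with the clearest difference at 24 h. Windows with and without the core can thus be read beside the values. Each sequence runs 5′ to 3′ from 150 bases before to 10 bases after the start on the strand of the gene, with the match in capitals. A match on the other strand reads GCNNNGTCA.
NQO1, chr16:69726551-69726710, minus strand: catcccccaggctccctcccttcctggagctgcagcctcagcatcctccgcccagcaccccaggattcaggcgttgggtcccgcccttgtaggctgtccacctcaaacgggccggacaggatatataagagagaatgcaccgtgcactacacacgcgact
TXNRD1, chr12:104215629-104215788, plus strand: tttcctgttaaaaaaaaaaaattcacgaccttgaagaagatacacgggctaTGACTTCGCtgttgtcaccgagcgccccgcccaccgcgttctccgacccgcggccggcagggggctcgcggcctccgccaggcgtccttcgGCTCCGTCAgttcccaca
TXNRD1, chr12:104286882-104287041, plus strand: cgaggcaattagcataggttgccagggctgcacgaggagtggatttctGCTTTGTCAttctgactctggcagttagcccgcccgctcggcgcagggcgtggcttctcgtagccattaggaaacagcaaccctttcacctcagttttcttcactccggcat
GCLM, chr1:93909421-93909580, minus strand: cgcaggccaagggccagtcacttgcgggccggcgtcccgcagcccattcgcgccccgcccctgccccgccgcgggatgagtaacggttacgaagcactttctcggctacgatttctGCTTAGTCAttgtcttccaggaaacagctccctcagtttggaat
KEAP1, chr19:10502762-10502921, minus strand: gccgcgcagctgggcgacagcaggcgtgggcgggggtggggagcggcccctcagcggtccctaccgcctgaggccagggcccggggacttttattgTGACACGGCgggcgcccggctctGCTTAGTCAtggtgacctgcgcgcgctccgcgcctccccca
The first TXNRD1 window held matches that began 99 and 8 bases before the start, the second 1 match that began 102 bases before it. The GCLM match began 34 bases before the start, and those of KEAP1 54 and 31 bases before it. A match is a run of letters and not a measured binding site. Sequence outside these windows was not searched, so a gene without a match here may carry the core elsewhere.

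The targeted gene was lower on every siRND3 array: RND3 stood at 31.7% of siControl at 24 h (log2 difference −1.66, limma adjusted p = 0.000345) and at 31.9% on the single arrays at 48 h. Pairs of arrays within a group at 24 h correlated at r between 0.991 and 0.995, and pairs from different groups between 0.987 and 0.989. All 8 arrays lay on 1 slide, with siRND3 in row 1 and siControl in row 2, and the effect of treatment cannot be told apart from that of the row. Both 48 h arrays lay in column 4 and no 24 h array did, so slide column and time cannot be told apart either. All 8 marker genes fixed for glioma cells were well above background on all 8 arrays. Of these, 1 was lower at 24 h (CD44, log2 difference −0.58, limma adjusted p = 0.00721) and 1 higher (NES, at 1 of its probes, 0.41, limma adjusted p = 0.0472). On the single arrays at 48 h the log2 difference was −2.12 for CD44, 2.10 for that NES probe and 0.37 for its other probe. Of 9 markers of other cell types, CDH1 and RBFOX3 were not well above background, and the probes of the other 7 had siControl means of only 4.19 to 7.07 on the log2 scale. Of those 7 genes, 2 were lower after knockdown (PECAM1, log2 difference −0.99, and SYT1, each at 1 probe), and the part of either marker list in the results below was not tested.

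**Figure D1:**
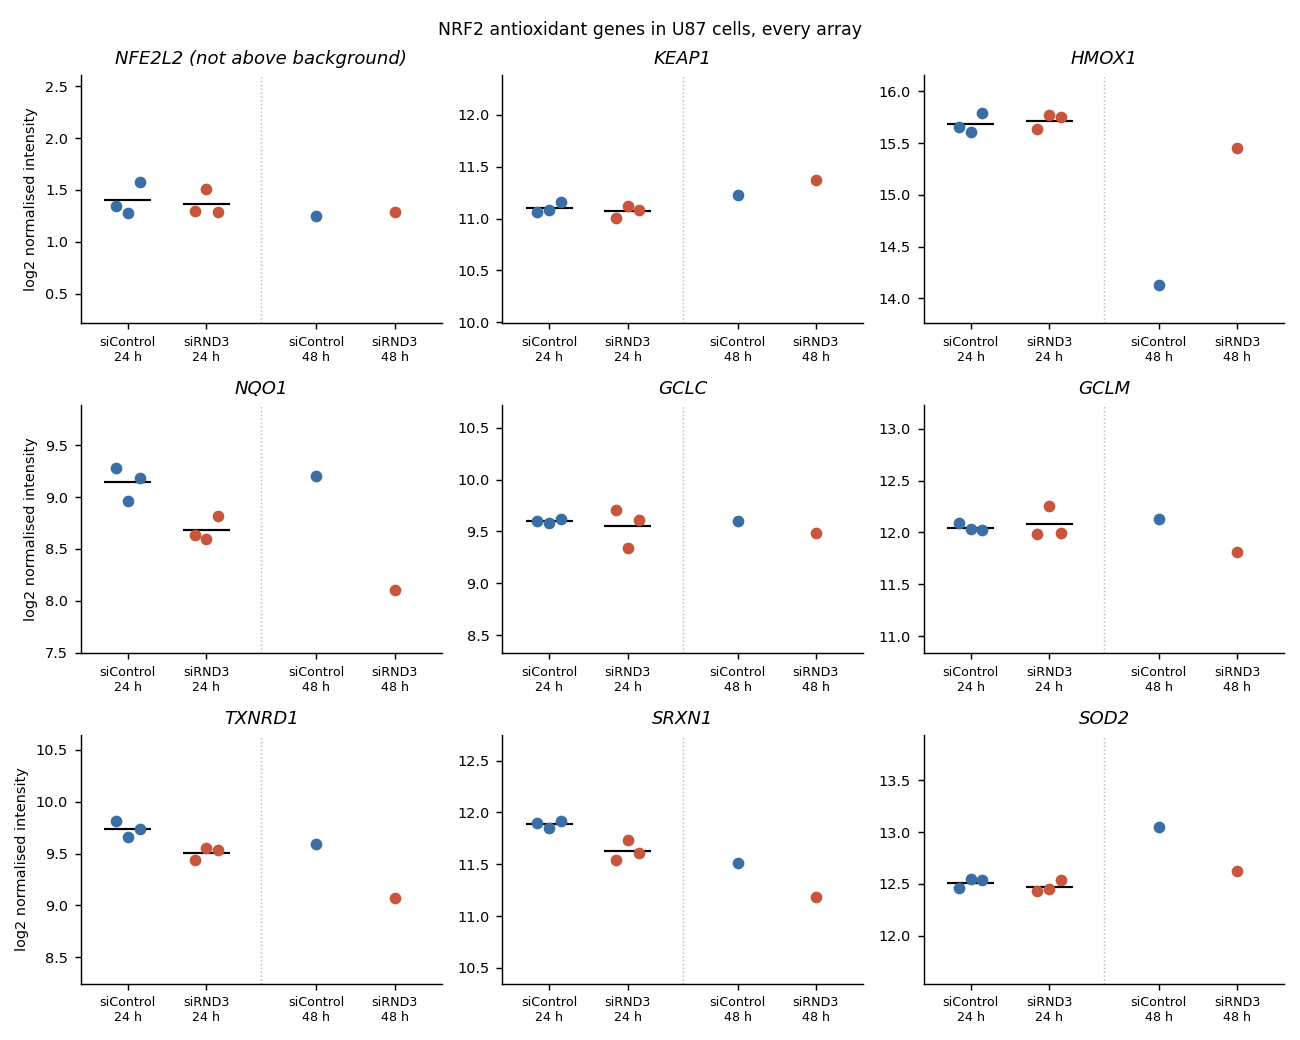
Log2 normalised intensity of the 9 genes on every array, 1 panel per gene, with siControl in blue and siRND3 in red at 24 h (3 arrays each, bar at the mean) and 48 h (1 array each). Every panel spans the same log2 range, the siRND3 points of NQO1, TXNRD1 and SRXN1 lie below their siControl points at 24 h, and HMOX1 is low on 1 array, the siControl array at 48 h.

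At 24 h the NRF2 antioxidant genes did not pass the test, with NQO1 as the exception. NQO1, a reductase that detoxifies quinones and the textbook readout of NRF2, was lower, at 72.6% of siControl. Its call stood close to the threshold (limma adjusted p = 0.0465) and was lost under 7 of the 16 alternatives. NRF2 activity itself was not measured. TXNRD1 and SRXN1 of the thioredoxin system were lower on every siRND3 array by smaller amounts that did not pass the test. KEAP1, HMOX1, GCLC, GCLM and SOD2 had overlapping groups and differences between −0.05 and 0.03 on the log2 scale. In bulk RNA, fewer cells that express a gene and less of its RNA per cell cannot be told apart.

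By limma with Benjamini-Hochberg adjustment over all probes, 1 of the 8 tested genes was lower and 0 were higher at 24 h, where 6.38% of all probes were lower and 5.27% higher. At an unadjusted p under 0.05, 3 of the 8 passed, where 8063 of all 28759 probes (28.04%) did. The siRND3 arrays were without exception under the siControl arrays for 3 of the 8 genes, against 14.0% of all probes, and above them for 0 of the 8, against 20.3%. The median difference of the 8 genes was −0.04 on the log2 scale, beside 0.05 over all probes tested.

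NFE2L2 itself was not measured by the probe named for it here. That 1 probe (A_33_P3225600) was not well above background on any of the 8 arrays. No fold is therefore given and nothing can be said of NFE2L2 RNA. KEAP1, the repressor, was measured well, by 10 spots of 1 probe (A_23_P119141). The siControl arrays at 24 h read 11.06, 11.08 and 11.16 on the log2 intensity scale and the siRND3 arrays 11.00, 11.12 and 11.08. The groups overlapped, with a log2 difference of −0.03 (95% interval −0.21 to 0.14, limma adjusted p = 0.817). At 48 h the siControl array read 11.23 and the siRND3 array 11.38.

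NQO1 was read by 1 probe (A_23_P206661) with 2 spots. Its siControl arrays at 24 h were at 9.28, 8.96 and 9.19 (mean 9.14 ± 0.16, SD, n = 3) and its siRND3 arrays at 8.63, 8.59 and 8.82 (mean 8.68 ± 0.12, SD, n = 3). The highest siRND3 array thus lay under the lowest siControl array. The log2 difference was −0.46 (95% interval −0.73 to −0.19), with a limma adjusted p of 0.0465. An exact two-sided permutation test gave p = 0.1, the smallest that 3 arrays against 3 allow. This call stood close to the threshold and was lost under 7 of the 16 alternatives, among them without the filter on dim probes (adjusted p = 0.0916) and when siControl replicate 1 or 3 or any siRND3 replicate was left out. It was kept without siControl replicate 2, and over the 6 fits without 1 array the difference ran from −0.55 to −0.39 and the adjusted p from 0.0473 to 0.145.

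The 48 h arrays put NQO1 further apart. The siControl array read 9.20, within the range of its 24 h arrays, and the siRND3 array read 8.10, below all 7 others. That was 46.6% of siControl, a log2 difference of −1.10 with no replicate arrays. The change of the knockdown effect from 24 h to 48 h was −0.64 (95% interval −1.18 to −0.10) and did not pass after adjustment (limma adjusted p = 0.198).

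By the fixed rule, the genes most like NQO1 in profile over the 8 arrays were TUBB6 (a tubulin, Pearson r = 0.991), WDR45B (0.990) and PRELID3B (0.990), out of 18120 probes compared. These points share their arrays and normalisation, and the order rests on 8 arrays.

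TXNRD1 encodes the cytosolic thioredoxin reductase, which spends NADPH to recharge thioredoxin. Its siControl arrays at 24 h read 9.82, 9.66 and 9.74 and its siRND3 arrays 9.43, 9.55 and 9.53 (probe A_33_P3351120). The groups did not overlap, and the siRND3 mean was 85.2% of siControl, with a log2 difference of −0.23 (95% interval −0.42 to −0.04, limma adjusted p = 0.116). At 48 h it read 9.60 in siControl and 9.07 in siRND3, or 69.6%.

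SRXN1 encodes sulfiredoxin, which repairs over-oxidised peroxiredoxins. It read 11.90, 11.85 and 11.91 in siControl and 11.54, 11.73 and 11.60 in siRND3 at 24 h (probe A_23_P320113). The groups again did not overlap, at 83.4% of siControl and a log2 difference of −0.26 (95% interval −0.45 to −0.07, limma adjusted p = 0.0830). At 48 h SRXN1 read 11.51 and 11.18, or 79.5%. When all 8 arrays were fitted together for treatment and time, SRXN1 (−0.28, adjusted p = 0.0388) and TXNRD1 (−0.30, adjusted p = 0.0486) passed together with NQO1.

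GCLC and GCLM are the catalytic and modifier subunits of glutamate-cysteine ligase, which starts glutathione synthesis. GCLC read 9.60, 9.58 and 9.62 in siControl and 9.70, 9.34 and 9.61 in siRND3 at 24 h, a difference of −0.05 (95% interval −0.30 to 0.21, limma adjusted p = 0.808). Its siRND3 arrays spread far more (SD 0.19, n = 3) than its siControl arrays (SD 0.02, n = 3), with replicate 2 the low one, and without that array the difference was 0.06. GCLM read 12.09, 12.03 and 12.02 in siControl and 11.98, 12.25 and 11.996 in siRND3, a difference of 0.03 (95% interval −0.20 to 0.26, limma adjusted p = 0.872). The same siRND3 replicate was the high one for GCLM, and without it the difference was −0.06. Neither subunit therefore had a settled sign at 24 h, and the intervals leave room for a change of up to about 0.30 on the log2 scale. At 48 h GCLC read 9.60 in siControl and 9.49 in siRND3, and GCLM 12.13 and 11.81.

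**Figure D2:**
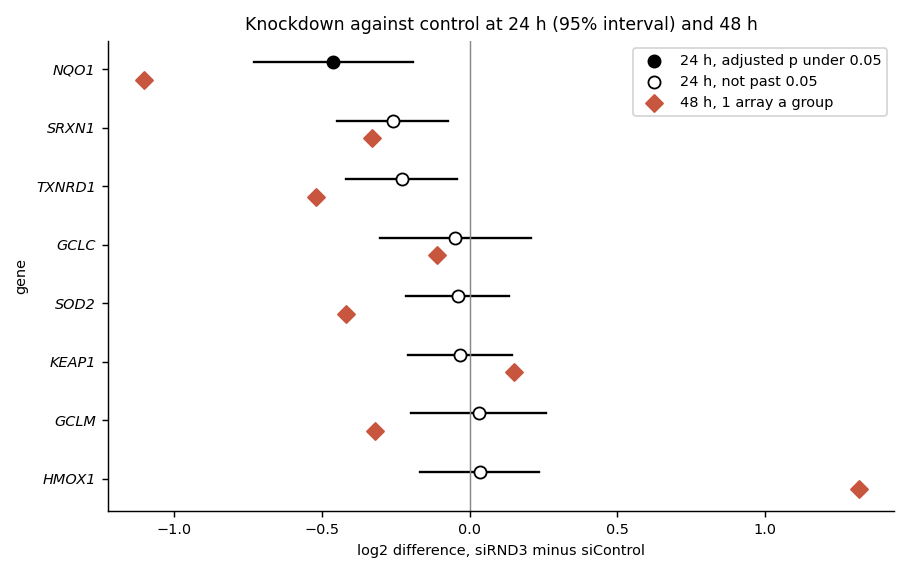
Log2 difference between siRND3 and siControl for the 8 tested genes, with circles for the means at 24 h (3 arrays a group, bar for the 95% interval, filled where the limma adjusted p is under 0.05) and diamonds for the single arrays at 48 h. NQO1 is the filled gene at −0.46, and at 48 h HMOX1 stands at 1.32 and NQO1 at −1.10, on opposite sides.

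HMOX1 behaved unlike the others. Heme oxygenase 1, which breaks heme down to biliverdin, carbon monoxide and iron, showed no difference beyond the spread at 24 h, and at 48 h it was 2.49-fold higher in siRND3 than in siControl cells. The siControl array at 48 h lay far below the siControl arrays at 24 h, and the siRND3 array at 48 h lay closer to its own 24 h arrays.

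The 10 spots of the HMOX1 probe (A_23_P120883) gave 15.65, 15.61 and 15.79 in siControl and 15.63, 15.77 and 15.75 in siRND3 at 24 h. These overlapped, with means of 15.68 ± 0.09 and 15.72 ± 0.07 (SD, n = 3 each) and a log2 difference of 0.03 (95% interval −0.17 to 0.24, limma adjusted p = 0.832). A joint fit of both times gave 0.36 (adjusted p = 0.294), since it averages in the 48 h arrays. At 48 h the siControl array read 14.13 and the siRND3 array 15.45. In siControl cells the fall was to 34.2% of the 24 h mean (log2 difference −1.55 ± 0.12, SE), which passed in the limma model of all 8 arrays (adjusted p = 0.0101) and ranked 90 from the bottom of 28759 probes. In siRND3 cells HMOX1 stood at 83.2% of its 24 h mean (−0.27 ± 0.12, SE, adjusted p = 0.215).

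The knockdown effect on HMOX1 at 48 h exceeded that at 24 h by 1.28 on the log2 scale (95% interval 0.88 to 1.69, 2.43-fold, limma adjusted p = 0.0263). It was the 1 gene of the 8 whose effect differed between the times, where 1.10% of all probes had a more positive and 1.63% a more negative effect at 48 h. At 48 h 1.78% of probes had a higher difference than HMOX1. Leaving out any 1 of the 6 arrays at 24 h kept the difference between 1.23 and 1.32 but took the adjusted p above the threshold, to between 0.0504 and 0.0785. Each 48 h group was 1 array, assumed in the model to vary like the 24 h arrays, so the HMOX1 result rests on the siControl array at 48 h.

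SOD2, the manganese superoxide dismutase of mitochondria, read 12.46, 12.54 and 12.54 in siControl and 12.43, 12.45 and 12.54 in siRND3 at 24 h, a difference of −0.04 (95% interval −0.22 to 0.13, limma adjusted p = 0.766). With time it rose in siControl cells to 13.04 at 48 h, or 145% of the 24 h mean (log2 difference 0.53 ± 0.10, SE, limma adjusted p = 0.0470), and read 12.63 in siRND3 cells (0.15 ± 0.10, SE, adjusted p = 0.393). The rise in siControl cells was lost when any 1 of the 6 arrays at 24 h was left out (adjusted p between 0.0584 and 0.135) and under scaling to the 75th percentile (0.0527). The effect of knockdown on SOD2 changed by −0.38 between the times (limma adjusted p = 0.236).

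Set side by side at 48 h, 6 of the 8 genes read lower in the siRND3 than in the siControl array and 2, HMOX1 and KEAP1, read higher. The median difference was −0.33 on the log2 scale beside 0.05 over all probes. Differences of over 1 on the log2 scale were found for NQO1 on the low side, where 5.62% of probes fell that far, and for HMOX1 on the high side, where 3.93% did. The order from lowest to highest was NQO1, TXNRD1, SOD2, SRXN1, GCLM, GCLC, KEAP1 and HMOX1, and with 1 array a group the spread that would separate neighbours is unknown.

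Over time, 2 of the 8 genes changed in siControl cells, HMOX1 down and SOD2 up, where 2.73% of all probes were lower and 0.824% higher at 48 h by limma. In siRND3 cells 0 of the 8 passed in the limma model, where 6.45% of probes were lower and 2.59% higher, and 4 did at an unadjusted p under 0.05, as did 26.2% of all probes. Those nearest the threshold were SRXN1 (−0.45, adjusted p = 0.0582), TXNRD1 (−0.43, 0.0630) and NQO1 (−0.58, 0.0731), all lower at 48 h. All 3 passed under normexp background correction and in the deposited log2 values. The remaining gene of the 4, KEAP1, was higher at 48 h (0.31, limma adjusted p = 0.122).

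**Figure D3:**
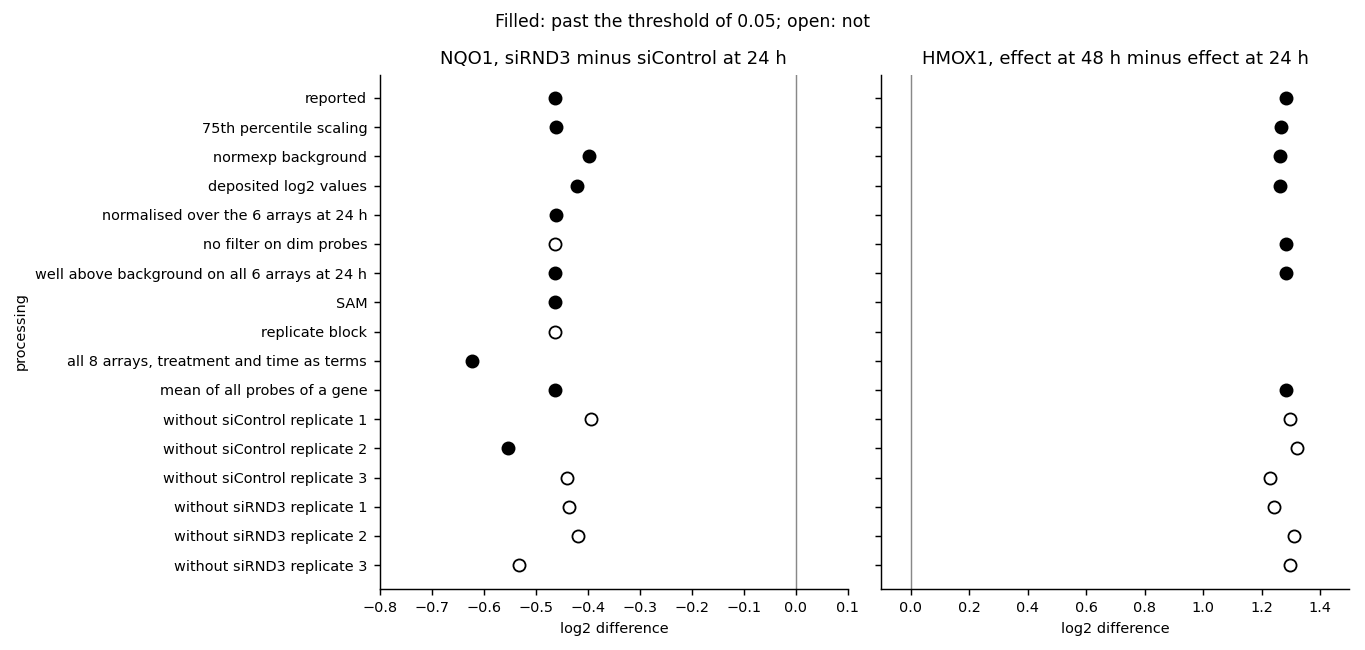
Log2 difference of NQO1 at 24 h (left) and of the change in the HMOX1 knockdown effect from 24 h to 48 h (right) as reported and under each alternative processing, with filled points past the 0.05 threshold and open points not. NQO1 stays between −0.62 and −0.39 and HMOX1 between 1.23 and 1.32, while their calls come and go, and settings with no HMOX1 point concern the 24 h fit alone.

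Around these 9 genes stand others that feed, restrain or carry out the antioxidant response, held on 6 lists with 84 genes, of which 80 had a probe and 74 were tested. Of the 74 genes, 7 were lower and 1 was higher after knockdown at 24 h by limma, where 9.26% of all genes tested were lower and 7.16% higher. The largest of these differences belonged to SLC7A11, the cystine transporter, at 35.3% of siControl. The median difference over their 93 probes was −0.05.

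Among regulators of NRF2, 11 of 12 genes were tested, 3 were lower and 1 was higher, where 9.26% and 7.16% of all genes tested were. The small MAF proteins are the DNA-binding partners of NRF2, and MAFF read 9.07, 8.99 and 9.004 in siControl and 8.26, 8.41 and 8.29 in siRND3 (log2 difference −0.70, limma adjusted p = 0.00296). MAFK differed by −0.58 (adjusted p = 0.0183), while both probes of MAFG gave values near zero (−0.07 and −0.05, adjusted p = 0.576 and 0.780). BTRC, an F-box protein of a second ubiquitin ligase for NRF2, differed by −0.51 (adjusted p = 0.0150).

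NFE2L1, a relative of NRF2 that governs proteasome genes, was the gene that rose. Its siControl arrays at 24 h read 12.48, 12.34 and 12.43 and its siRND3 arrays 12.91, 12.80 and 12.88, a log2 difference of 0.45 (limma adjusted p = 0.0155) with no overlap. At 48 h it read 11.87 in siControl and 13.15 in siRND3, so that the knockdown effect was larger by 0.84 (limma adjusted p = 0.0467). MAFF moved further the other way, to 8.73 and 7.13 at 48 h, with a change of effect of −0.90 on the log2 scale (limma adjusted p = 0.0386). BACH1, BACH2, CUL3, GSK3B, SQSTM1 and RBX1 had no probe that passed at 24 h. GSK3B differed by 0.27 (limma adjusted p = 0.0804). The tested BACH2 probe was dim (siControl mean 4.51) and differed by −0.42 (limma adjusted p = 0.0878), but by 0.12 on the single arrays at 48 h. The probes of CUL3 disagreed. A dim one (siControl mean 5.17) differed by −0.51 (limma adjusted p = 0.138) and the other by 0.13 (0.380). At 48 h these CUL3 probes differed by −1.37 and 0.46.

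In glutathione metabolism, 19 of 22 genes were tested, 3 were lower and 0 were higher, where 9.26% and 7.16% of all genes tested were. SLC7A11, which imports the cystine from which glutathione is built, read 11.25, 11.22 and 11.27 in siControl and 9.81, 9.57 and 9.84 in siRND3 at 24 h. These groups lay far apart, at a log2 difference of −1.50 (95% interval −1.73 to −1.28, limma adjusted p = 0.000445). At 48 h SLC7A11 read 10.55 and 8.32, a difference of −2.24. GLRX, a glutaredoxin that reduces glutathionylated proteins, differed by −0.74 (adjusted p = 0.00283) and GSTO1, a glutathione transferase, by −0.33 (adjusted p = 0.0283).

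In NADPH supply, quinone reduction and export, 19 of 22 genes were tested and 1 was lower, where 9.26% of all genes tested were. This gene was ABCC3, an efflux pump for conjugates. One of its probes differed by −0.47 (A_23_P207507, limma adjusted p = 0.0139) and the other by −0.06 (adjusted p = 0.750), so the probes disagreed. In the thioredoxin and peroxiredoxin list none of the 13 genes tested of 15 passed at 24 h by limma, with differences from −0.28 to 0.16 on the log2 scale. TXNIP, the inhibitor of thioredoxin, had a knockdown effect more negative at 48 h than at 24 h (difference −0.87, limma adjusted p = 0.0453), at 11.63 in siControl and 10.48 in siRND3. Among heme and iron genes, with 8 of 9 tested, none passed and the largest difference was that of the transferrin receptor TFRC (−0.30, limma adjusted p = 0.0991). Of the 4 superoxide and catalase genes none passed, and CCS, the copper chaperone, stood highest at 0.16 (limma adjusted p = 0.260).

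Over the 6 lists, the knockdown effect at 48 h differed from that at 24 h for 1 gene on the positive side and 2 on the negative side, among all genes for 1.68% and 2.56%. SLC7A11, GLRX and MAFF kept their 24 h call under all 16 alternatives, while BTRC lost its call under 3, NFE2L1 under 3, MAFK under 4, ABCC3 under 4 and GSTO1 under 8. With 1 array left out, BTRC, MAFK and ABCC3 lost theirs without siControl replicate 1 or 3, MAFK also without siRND3 replicate 3, NFE2L1 without siControl replicate 2 or 3, and GSTO1 without any 1 of the 6 arrays. Without these arrays the differences stayed between −0.53 and −0.47 for BTRC, −0.61 and −0.51 for MAFK, −0.47 and −0.44 for ABCC3, 0.41 and 0.45 for NFE2L1, and −0.35 and −0.31 for GSTO1. The mean of both ABCC3 probes differed by −0.27 (adjusted p = 0.0750), and GSTO1 also fell short under scaling to the 75th percentile (−0.27, adjusted p = 0.0521). The effects of MAFF, NFE2L1 and TXNIP that differed between the times also lost their call without any 1 of the 6 arrays at 24 h, and those of NFE2L1 (adjusted p = 0.0502) and TXNIP (0.0516) under scaling to the 75th percentile.

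**Figure D4:**
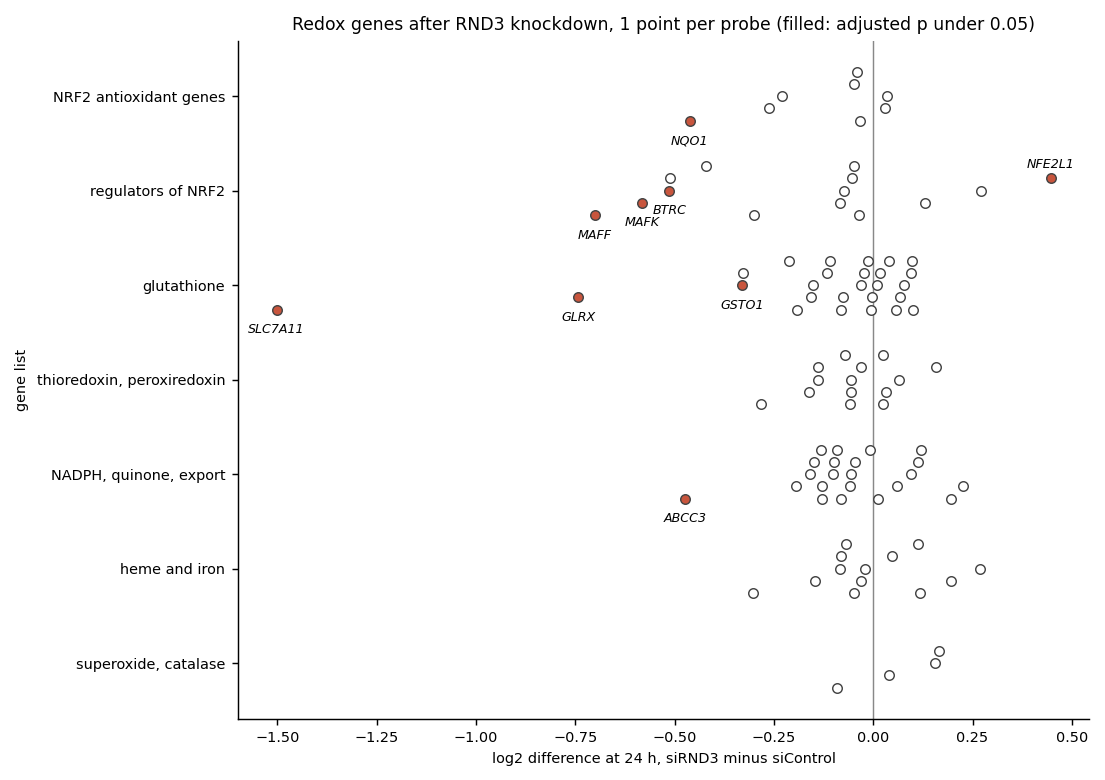
Log2 difference between siRND3 and siControl at 24 h for each tested probe of the NRF2 antioxidant genes and of 6 lists of related genes, with filled and named points where the limma adjusted p is under 0.05 and vertical offsets within a list for legibility only. SLC7A11 at −1.50 lies furthest out and most probes lie near zero.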

How the data were processed

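Labelled cRNA made from RNA of U87 cells was hybridised to 8 one-colour Agilent 8x60k arrays. The authors deposited scanner files from Feature Extraction 10.7.3.1 that hold spot intensity on a linear scale, background-corrected within each array, and a table of log2 values that they had quantile-normalised. Here the processed intensity was put on the log2 scale and quantile-normalised on the 8 arrays, control spots (4259 of 62976) and outlier spots (0.364% to 0.530% per array) were left out, and spots of a probe were averaged. No spot was saturated. On each array 68.3% to 70.7% of 42405 probes stood well above background (at least 50% of spots so marked), and 28759 probes so called on all 3 arrays of a 24 h group were tested. The number of arrays limits the precision.

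Probes were named through RefSeq accessions of GRCh38.p14 (25422 probes, 60.0%). The array annotation was hg19, so no probe coordinates are given. A gene was called on 1 passing probe or more, provided none passed the other way.

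Groups came from the sample labels. The 24 h arrays were compared with limma 3.58.1 in R 4.3.3 and p-values adjusted over every tested probe (Benjamini-Hochberg, threshold 0.05). The 48 h arrays entered a limma model of 4 groups. The methods of the study name SAM at a false discovery rate of 5%, which was run as an alternative. The other alternatives were scaling to the 75th percentile, normexp with an offset of 50 (on spot medians) and the deposited log2 values. Normalisation over the 24 h arrays, no filter, a filter on all 6 arrays and all 8 arrays with time as a term were also run. So were a block for the replicate number, the mean of the probes of a gene, and each 24 h array left out. The fits were tested on simulated data.

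The genes and lists were chosen with earlier results of these data known. Named were all 9 genes with every probe, from the other lists every gene past the threshold at 24 h or between the times, for a list with none the gene with the largest 24 h difference, and the 3 genes nearest in profile to the changed gene. Values of MAFG and of other regulators that did not pass were added after they were seen.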

Additional observations from a re-analysis of the deposited data

Results flagged for a closer look

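Among the 8 tested genes and the 74 of the 6 lists, the knockdown effect differed between 24 h and 48 h for 4. This is by the limma model of 4 groups. Among all genes tested, the effect was more positive at 48 h for 1.68% and more negative for 2.56%. The effect on HMOX1 was higher at 48 h by 1.28 (log2 scale, adjusted p = 0.0263) and that on NFE2L1 by 0.84 (adjusted p = 0.0467). For MAFF the difference was −0.90 (adjusted p = 0.0386) and for TXNIP −0.87 (adjusted p = 0.0453). Each rests on 1 array of each kind at 48 h, and each lost its call when any 1 of the 6 arrays at 24 h was left out. Scaling to the 75th percentile also ended the calls of NFE2L1 (adjusted p = 0.0502) and TXNIP (0.0516).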

How the results depend on the processing

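No difference of the 8 genes that passed the threshold changed sign under the alternatives run. At 24 h, 118 of 128 results over the 16 alternatives kept their side of the threshold, with 7 lost calls, all of NQO1, and 3 gained. The count of genes lower at 24 h, 1 as reported, was 2 under normexp, 3 with all 8 arrays in the fit, 0 without the filter on dim probes and 0 to 1 when 1 array was left out. For the effect at 48 h minus that at 24 h the count, 1 as reported, was 0 in every fit without 1 array, and probes called overall went from 785 to between 7 and 273. In siControl cells over time the count, 2 as reported, was 1 with 75th percentile scaling and 1 in every fit without 1 array, while SRXN1 passed as a further gene under normexp (−0.37, limma adjusted p = 0.0445). HMOX1 was called in all 12 alternatives (−1.59 to −1.50). In siRND3 cells over time it was 3 under normexp and 3 in the deposited log2 values, against 0 as reported. The cause of these changes was not tested, and the fits without 1 array also hold fewer arrays.

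The labels do not say whether the replicate number pairs the samples. The deviations of same-numbered 24 h arrays correlated at 0.00, −0.01 and 0.13. Those of differently numbered arrays correlated at −0.13 to 0.11, and these values cannot decide whether samples were paired. With the replicate number as a block, the count of genes lower at 24 h was 0 (NQO1 −0.46, limma adjusted p = 0.0738) and the probes changed at 24 h numbered 1651 against 3350. The block also ended the 24 h calls of BTRC, MAFK, ABCC3, NFE2L1 and GSTO1 (limma adjusted p from 0.0502 to 0.0928). The number is also the slide column at 24 h.

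With 1 array a group at 48 h and 3 at 24 h, small changes could not be shown, and the dim probe of NFE2L2 carries no information on it.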
